A study of Mus musculus with 4 samples.

Results

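The core proteins of the extracellular matrix were followed as transcripts in peritoneal macrophages from mice on a control diet and from mice on a high-fat diet. The 43 genes, out of 24625 in the count tables, were chosen by name and encode collagens, small proteoglycans, laminins, fibulins and other structural or matricellular proteins. All 43 were found by symbol. The animals were C57BL/6 mice fed for 12 weeks either a control diet, described as standard chow, or a high-fat diet with 60% of energy from fat. All mice in both groups received 3% thioglycollate medium into the peritoneal cavity 4 days before collection, so both groups hold cells of an inflamed cavity, collected as peritoneal macrophages with no further sort named. There were 2 libraries per diet. Whether each came from 1 mouse or from a pool is not in the labels, so p-values measure the spread between these libraries, which may be technical.

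The extracellular matrix is the network of secreted proteins outside cells. Fibrillar collagens form its cables, collagen IV and laminins form the sheets of basement membranes, small leucine-rich proteoglycans coat collagen fibrils, fibrillin and fibulins build elastic fibres, and matricellular proteins signal from the matrix to cells. Fibroblasts are the main source of interstitial matrix and mesothelial cells line the peritoneal cavity on a basement membrane, while macrophages are better known for degrading matrix and for making a few of its components, among them thrombospondin 1 and versican.

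The libraries held 39347347 to 45658551 counts on genes. The macrophage label was borne out by the markers: all 8 macrophage genes listed were detected in every library, and their summed level was 26490 and 25392 CPM (counts scaled to the size of the library) with control diet and 19702 and 24104 CPM with high-fat diet. The sums were thus lower in both high-fat libraries, where the matrix genes were higher. Lyz2 supplied most of each sum, at 22930.4 and 22094.3 against 16399 and 20994.5 CPM, and was not called (adjusted p = 0.428, edgeR). Of the 8 markers, 7 had a log2 fold change below 0, where 49.2% of all genes tested were above 0. Mertk was called lower (-0.69 ± 0.12, adjusted p = 0.0449, edgeR), as were 0.29% of all genes. DESeq2 called 2 of the 8 lower (1.57% of all genes), and limma-voom 0. The part of these lower marker levels in the matrix values was not tested. Most matrix genes were rare beside the macrophage markers. The 43 genes together reached 141 and 106 CPM with control diet and 313 and 183 CPM with high-fat diet, so both high-fat libraries lay above both control libraries. In a bulk sample, fewer cells of a type and less RNA per cell cannot be told apart.

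Of the 43 genes, 33 passed the filter on low counts and 10 did not. The filter asked for at least 0.249 CPM, about 10 counts, in at least 2 libraries. Of the 33, 17 reached that level in both control libraries, 7 in 1 of them and 9 in neither. These 9 genes owe their place to the high-fat libraries alone and could only come out higher, so no count over the 33 genes is read as support for a direction.

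In the edgeR quasi-likelihood test, 7 of the 33 genes were called higher with high-fat diet at an adjusted p of 0.05 and 0 were called lower. Among all 12747 genes tested the same rule called 0.322% higher and 0.29% lower. The 7 genes were Postn, Bgn, Lum, Col6a5, Lama4, Fbn1 and Col6a3. At an unadjusted p under 0.05, 25 of the 33 genes were higher and 0 lower, where 8.56% and 8.46% of all genes were. Both high-fat libraries lay above both control libraries in 28 of the 33 genes, below them in 1 and overlapped with them in 4; over all genes tested the shares were 26.1% above and 24.9% below. The median log2 fold change of the 33 genes was 2.45, against -0.0054 for all genes tested. The 7 calls rested on both control libraries: leaving out control replicate 1 left 0 calls among these genes (0.0609% of all genes tested were then higher), and leaving out control replicate 2 also left 0 (0.0379%). Leaving out high-fat replicate 1 gave 17 higher calls (3.39% of all genes), and leaving out high-fat replicate 2 gave 24 (2.13%). There the spread came from the control pair alone. Of the 33 genes, DESeq2 called 16 higher and 0 lower (1.3% and 1.57% of all genes), the 7 together with Col1a2, Col3a1, Col5a2, Col6a1, Dcn, Efemp1, Fbln2, Nid1 and Sparc. The limma-voom test called 2 higher, Postn and Dcn, and 0 lower (0.11% and 0.11% of all genes). Where no tool is named, an adjusted p or a call is that of the edgeR test.

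**Figure D1:**
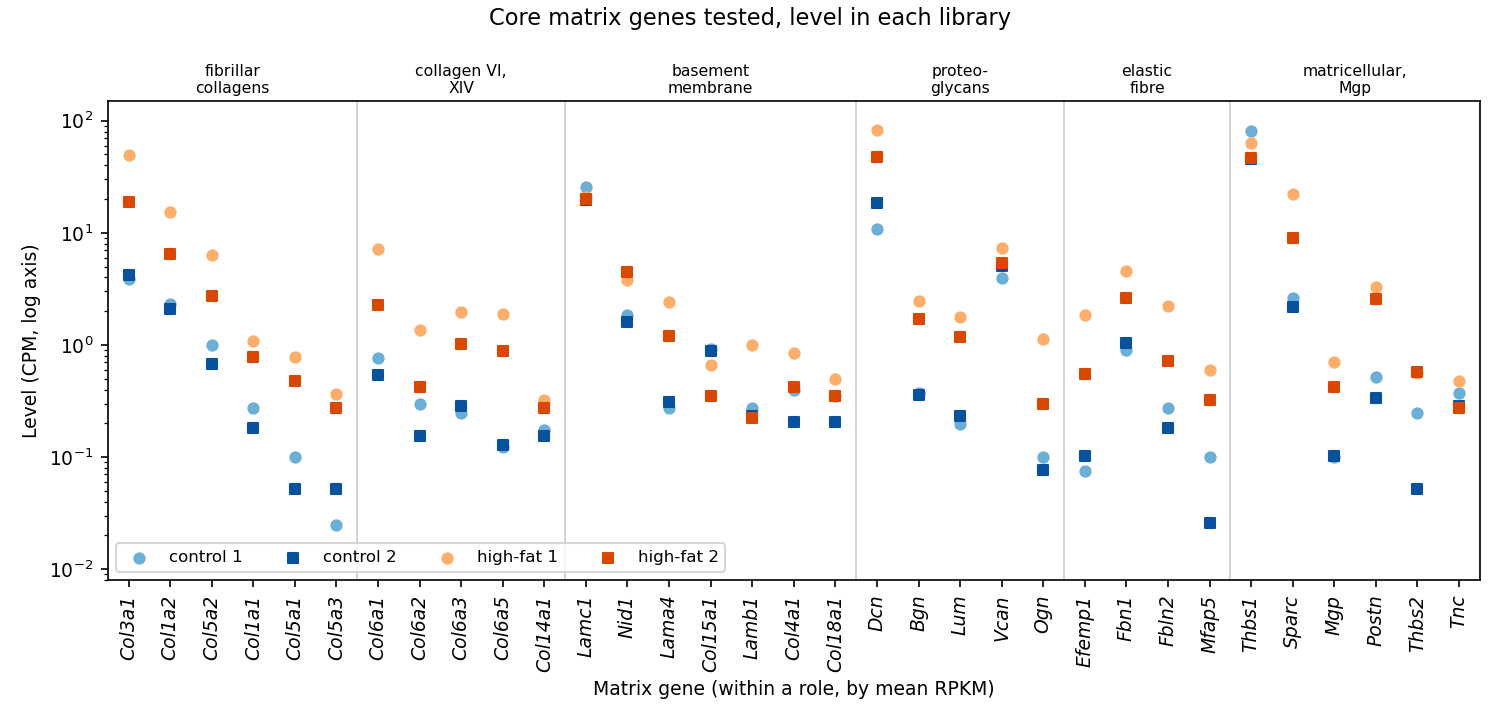
Level in CPM (log axis) of each of the 33 matrix genes that passed the filter, in each of the 4 libraries (points), grouped by role and ordered within a role by mean level per exon length. Most genes have both high-fat points above both control points, with high-fat replicate 1 on top, while Thbs1, Lamc1, Lamb1 and Tnc overlap and Col15a1 lies the other way.

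The high-fat libraries did not stand at the same height. High-fat replicate 1 was above high-fat replicate 2 in 31 of the 33 genes, against 54.9% of all genes tested. Among the 28 genes with separate libraries the ratio of replicate 1 to replicate 2 in CPM had a median of 1.80 and ran from 0.851 for Nid1 to 3.73 for Ogn. Without high-fat replicate 1 the median log2 fold change of the matrix genes was 1.73, and without high-fat replicate 2 it was 2.65.

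Fibrillar collagens, the cable-forming family, were not called in the edgeR test, although 6 of 6 tested genes were higher at an unadjusted p under 0.05 (8.56% of all genes). DESeq2 called 3 of them higher and limma-voom 0. Col3a1, which encodes the single chain of collagen III, was counted 156 and 164 times with control diet and 2306 and 750 times with high-fat diet, or 3.88 and 4.22 against 49.7 and 18.8 CPM. The diets were well apart, yet the high-fat libraries differed from each other by 2.65 times. The log2 fold change was 3.08 ± 0.63 (SE), with an adjusted p of 0.197 in the edgeR test, against 0.000614 in DESeq2 and 0.0244 in edgeR without robust estimation. Col3a1 did not pass in limma-voom (0.0776), nor in edgeR with the replicate block (0.122) or without the filter on low counts (0.313). Col1a2, a chain of collagen I, stood at 2.31 and 2.09 CPM with control diet and 15.5 and 6.53 CPM with high-fat diet (log2 fold change 2.33 ± 0.46, adjusted p = 0.130 in edgeR and 9.6e-09 in DESeq2, and 0.0488 in edgeR without robust estimation). Its adjusted p was 0.105 in limma-voom, and in edgeR 0.0515 with the replicate block and 0.266 without the filter on low counts. Col5a2, a chain of the fibril-nucleating collagen V, went from 40 and 26 counts to 293 and 110 (2.45 ± 0.44, adjusted p = 0.0655 in edgeR, 1.2e-05 in DESeq2, 0.0342 in edgeR with the replicate block and 0.0245 in edgeR without the filter on low counts). It did not pass in limma-voom (0.109) or in edgeR without robust estimation (0.0546). Col1a1, the other collagen I chain, was rare throughout, with 11 and 7 counts on the control diet and 50 and 31 on the high-fat diet. Col5a1 had 4 and 2 counts against 36 and 19, and Col5a3 had 1 and 2 against 17 and 11, so both are among the 9 genes that no control library would have kept. In all 6 tested genes of this family both high-fat libraries lay above both control libraries, against 26.1% of all genes tested. The log2 fold change lay between 2.02 and 3.08. Col5a1 and Col5a3 could only come out higher, so no direction is read from the counts over the 6 genes. Col27a1, a fibrillar collagen of cartilage, had 7, 3, 5 and 9 counts in control replicates 1 and 2 and high-fat replicates 1 and 2 and was not tested.

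Collagen VI, which forms beaded filaments around cells, supplied 2 of the calls. Col6a5 (chromosome 9: 105758400 to 105862974 on mm9, minus strand, 42 exon blocks) had 5 counts in each control library and reached 88 and 35 on the high-fat diet. It rose by 3.43 ± 0.54 on the log2 scale (adjusted p = 0.0358, edgeR), a 10.8-fold difference, and neither control library reached the filter's level. Col6a3 (chromosome 1: 92663435 to 92740548, minus strand, 46 exon blocks) rose from 10 and 11 counts to 92 and 41 (2.50 ± 0.45, adjusted p = 0.0478). Its call sat close to the threshold and was kept in 7 of 13 alternative analyses, against 10 of 13 for Col6a5. Col6a1 had 31 and 21 counts with control diet and 335 and 91 with high-fat diet, and Col6a2 had 12 and 6 against 63 and 17. Both had larger spreads between the high-fat libraries, 3.17 and 3.19 times, and edgeR adjusted p-values of 0.161 and 0.190. Col6a1 had adjusted p-values of 3.9e-06 in DESeq2 and 0.0353 in edgeR with the replicate block. It did not pass in limma-voom (0.149) or in edgeR without the filter on low counts (0.327). Col14a1, which sits on the surface of fibrils, had 7 and 6 counts against 15 and 11, a log2 fold change of 0.86 ± 0.52.

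The upstream sequences of called genes are shown because these genes differed in the same direction between the diets. They are from RefSeq on GRCm38.p6, which listed a start for 31 of the 43 genes, and each runs 5′ to 3′ and ends at the base before the listed start of the transcript. Capitals mark matches to the motifs searched on both strands in the 250 bases before the start: the TATA box hexamer TATAAA, the GC box GGGCGG, the CCAAT box, the AP-1 site TGANTCA and, by its name, the CArG box.
Bgn (chrX:73483351-73483600, plus strand): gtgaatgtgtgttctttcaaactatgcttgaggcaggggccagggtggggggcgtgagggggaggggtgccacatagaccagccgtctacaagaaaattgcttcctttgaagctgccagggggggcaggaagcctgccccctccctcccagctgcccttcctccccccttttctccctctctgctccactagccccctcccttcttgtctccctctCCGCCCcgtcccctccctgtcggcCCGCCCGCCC
Postn (chr3:54360857-54361106, plus strand): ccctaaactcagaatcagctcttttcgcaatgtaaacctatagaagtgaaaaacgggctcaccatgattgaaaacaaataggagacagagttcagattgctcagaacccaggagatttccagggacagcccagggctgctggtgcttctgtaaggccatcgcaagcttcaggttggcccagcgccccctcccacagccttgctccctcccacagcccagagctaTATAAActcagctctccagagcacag
Col6a5 (chr9:105960644-105960893, minus strand): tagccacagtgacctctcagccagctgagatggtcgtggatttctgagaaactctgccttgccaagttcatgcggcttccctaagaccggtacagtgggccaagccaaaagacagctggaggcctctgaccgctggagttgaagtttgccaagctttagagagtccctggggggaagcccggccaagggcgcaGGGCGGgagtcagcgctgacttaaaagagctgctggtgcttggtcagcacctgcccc
Col6a3 (chr1:90843972-90844221, minus strand): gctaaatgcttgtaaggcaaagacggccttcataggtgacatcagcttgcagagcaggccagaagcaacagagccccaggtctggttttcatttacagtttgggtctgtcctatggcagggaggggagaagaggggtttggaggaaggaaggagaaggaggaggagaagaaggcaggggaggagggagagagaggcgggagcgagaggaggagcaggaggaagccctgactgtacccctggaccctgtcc
The 4 sequences had no motif in common. Bgn held 3 matches to GGGCGG on the opposite strand, the last of them ending at the base before the start and overlapping its neighbour. Postn held TATAAA from 26 to 21 bases before the second of its 2 listed starts. The 250 bases before its first listed start, not printed, held none of the motifs. Col6a5 held 1 GGGCGG from 57 to 52 bases before the start, and Col6a3 held none of the motifs. Of the other called genes, Lum and Lama4 had no listed start. Fbn1 held GGGCGG, but the stretch free of annotated exons was too short to print. Over the 31 genes with a listed start, GGGCGG was present in 19 (61.3%), against 35.4% of 27025 genes of all kinds in the same table. TATAAA was present in 5 of the 31 (16.1% against 14.3%), CCAAT in 10 (32.3% against 37.5%), TGANTCA in 2 (6.45% against 7.82%) and the CArG box in 0 (against 1.62%). These are matches of letters, and the genes of the table were not matched to the matrix genes in base composition.

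Basement membrane genes were mixed. Lama4, a laminin alpha chain of vessels and soft tissue (chromosome 10: 38685321 to 38829994, plus strand, 38 exon blocks), had 11 and 12 counts with control diet and 111 and 48 with high-fat diet. It was the 1 gene called here (log2 fold change 2.62 ± 0.44, adjusted p = 0.0433, edgeR). Nid1, which links laminin to collagen IV, stood at 1.86 and 1.60 CPM against 3.77 and 4.43 CPM and just missed the threshold (1.24 ± 0.23, adjusted p = 0.0521 in edgeR, against 0.0113 in DESeq2 and 0.0858 in limma-voom). It differed from most of the list in that its 2 high-fat libraries were nearly level, with replicate 2 on top. Lamc1, the common laminin gamma chain, was the most abundant of the group and overlapped between the diets, at 25.5 and 19.8 CPM with control diet and 21.1 and 20.2 CPM with high-fat diet. Its log2 fold change was -0.13 ± 0.14 and took the opposite sign, 0.05, without control replicate 1.

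Lamb1, the beta chain that pairs with Lamc1, was high in high-fat replicate 1 alone: it was counted 11 and 9 times with control diet, 46 times in high-fat replicate 1 and 9 times in high-fat replicate 2. Without high-fat replicate 1 its log2 fold change went from 1.28 to -0.16. Col15a1, a collagen near basement membranes, was the 1 tested gene that was lower in each high-fat library than in either control library, with 37 and 34 counts against 31 and 14. Its log2 fold change was -0.80 ± 0.40, with an adjusted p of 0.348 in the edgeR test. Col4a1, which encodes the main collagen IV chain, had 16 and 8 against 39 and 17 counts, and Col18a1, the source of endostatin, had 14 and 8 against 23 and 14. Neither passed the threshold. The other 5 genes of the group were too rare to test. Col4a2 had 8, 2, 14 and 6 counts in control replicates 1 and 2 and high-fat replicates 1 and 2. In the same order Lamb2 had 5, 3, 15 and 6, Nid2, whose exons overlap another gene model, had 6, 3, 13 and 1, and the perlecan gene Hspg2 had 5, 3, 11 and 10. Lama5, a laminin alpha chain of epithelial basement membranes, had at most 1 count in any library.

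Proteoglycan genes supplied 2 of the calls and Dcn, the gene with the highest level per exon length averaged over the 4 libraries. Dcn encodes decorin, which binds collagen fibrils and TGF-beta. It had 439 and 709 counts with control diet and 3801 and 1909 with high-fat diet, or 10.9 and 18.3 against 81.9 and 47.8 CPM. The diets did not overlap, but the libraries within each diet stood apart too, with control replicate 1 at 0.597 times control replicate 2 and high-fat replicate 1 at 1.71 times high-fat replicate 2. The log2 fold change of 2.15 ± 0.43 had an adjusted p of 0.178 in the edgeR test. The other tools called Dcn higher, with adjusted p-values of 0.0453 in limma-voom and 0.00424 in DESeq2, as did edgeR without robust estimation (0.0267). In edgeR it did not pass with the replicate block (0.180) or without the filter on low counts (0.314). Bgn, the related proteoglycan biglycan (chromosome X: 70728974 to 70741275, plus strand, 8 exon blocks), had 15 and 14 counts against 114 and 68. It rose by 2.50 ± 0.35 on the log2 scale (adjusted p = 0.0266, edgeR), and its call was kept in 10 of 13 alternatives. Lum, the keratan sulfate proteoglycan lumican (chromosome 10: 97028135 to 97035337, plus strand, 3 exon blocks), rose from 8 and 9 counts to 83 and 47 (2.77 ± 0.41, adjusted p = 0.0310), and was also kept in 10 of 13, though neither control library reached the filter's level.

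Ogn, encoding osteoglycin, had 4 and 3 counts against 52 and 12, with a log2 fold change of 2.98 ± 0.76 and an adjusted p of 0.121. Vcan, the large hyaluronan-binding proteoglycan versican, stood at 3.95 and 5.07 CPM with control diet and 7.32 and 5.38 CPM with high-fat diet, a log2 fold change of 0.50 ± 0.22. Its libraries were separate only narrowly, and it did not pass (adjusted p = 0.287). The remaining leucine-rich proteoglycans were at the edge of detection. Prelp, which anchors basement membranes, had 1, 2, 1 and 3 counts in control replicates 1 and 2 and high-fat replicates 1 and 2, and Fmod, encoding fibromodulin, had 2 counts in high-fat replicate 1 and 0 in the other libraries.

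Among 6 genes of elastic fibres and fibulins, 4 were tested and 1 was called higher in edgeR. Fbn1, the microfibril protein fibrillin 1 (chromosome 2: 125126330 to 125332174, minus strand, 66 exon blocks), rose from 36 and 40 counts to 212 and 104 (log2 fold change 1.90 ± 0.32, adjusted p = 0.0449, edgeR). It was the best-counted gene of the group, and its call was kept in 8 of 13 alternatives. Efemp1, a fibulin, showed the highest log2 fold change of the 33 genes at 3.72 ± 0.73, from 3 and 4 counts to 85 and 22. It did not pass in edgeR (adjusted p = 0.0680) or limma-voom (0.133) but did in DESeq2 (0.00289) and in edgeR without the filter on low counts (0.00295). Efemp1 reached the filter's level in the high-fat libraries alone. Fbln2, another fibulin, had 11 and 7 against 103 and 29 counts (adjusted p = 0.0961 in edgeR, 0.169 in limma-voom, 0.0113 in DESeq2 and 0.0126 in edgeR without the filter). Mfap5, a microfibril-associated glycoprotein, had 4 and 1 against 28 and 13 (adjusted p = 0.103). Its exons overlap a gene model assembled by the authors, and the effect of the overlap on its count is not known. Fbln1 had 1, 0, 8 and 1 counts in control replicates 1 and 2 and high-fat replicates 1 and 2. The elastin gene Eln had 1, 0, 2 and 5, so the core protein of elastic fibres was barely detected.

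Matricellular genes held both the smallest adjusted p of the list and its best-counted gene in the control libraries, Thbs1, which did not differ beyond its spread. Postn, encoding periostin, a collagen-binding protein of fibroblasts (chromosome 3: 54165029 to 54194963, plus strand, 23 exon blocks), had 21 and 13 counts with control diet and 154 and 103 with high-fat diet. In CPM this was 0.522 and 0.335 against 3.32 and 2.58, so the high-fat libraries differed from each other by only 1.29 times. It rose by 2.77 ± 0.33 on the log2 scale (adjusted p = 0.0161, edgeR) and was called in 11 of 13 alternatives, limma-voom included. Sparc, an anti-adhesive collagen-binding protein, had 106 and 84 counts against 1031 and 356 (log2 fold change 2.70 ± 0.55, adjusted p = 0.161 in edgeR, against 0.00261 in DESeq2, 0.0359 in edgeR without robust estimation and 0.0400 with the replicate block). It did not pass in limma-voom (0.0925) or in edgeR without the filter on low counts (0.319). Mgp, the matrix Gla protein that inhibits calcification, had 4 counts in each control library and reached 33 and 17 on the high-fat diet (adjusted p = 0.0798).

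Neither thrombospondin gene was called. Thbs1, made by many activated cells including macrophages, had 3234 and 1785 counts with control diet and 2956 and 1871 with high-fat diet, or 80.3 and 46.0 against 63.7 and 46.8 CPM. Both high-fat libraries lay within the range of the control libraries, with a log2 fold change of -0.19 ± 0.35 that was 0.25 without control replicate 1. Thbs2, a fibroblast thrombospondin, had 10 and 2 counts against 26 and 23, a log2 fold change of 1.89 ± 0.60 with an adjusted p of 0.178. Tnc, encoding tenascin C, had 15 and 11 against 22 and 11 counts and overlapped between the diets.

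**Figure D2:**
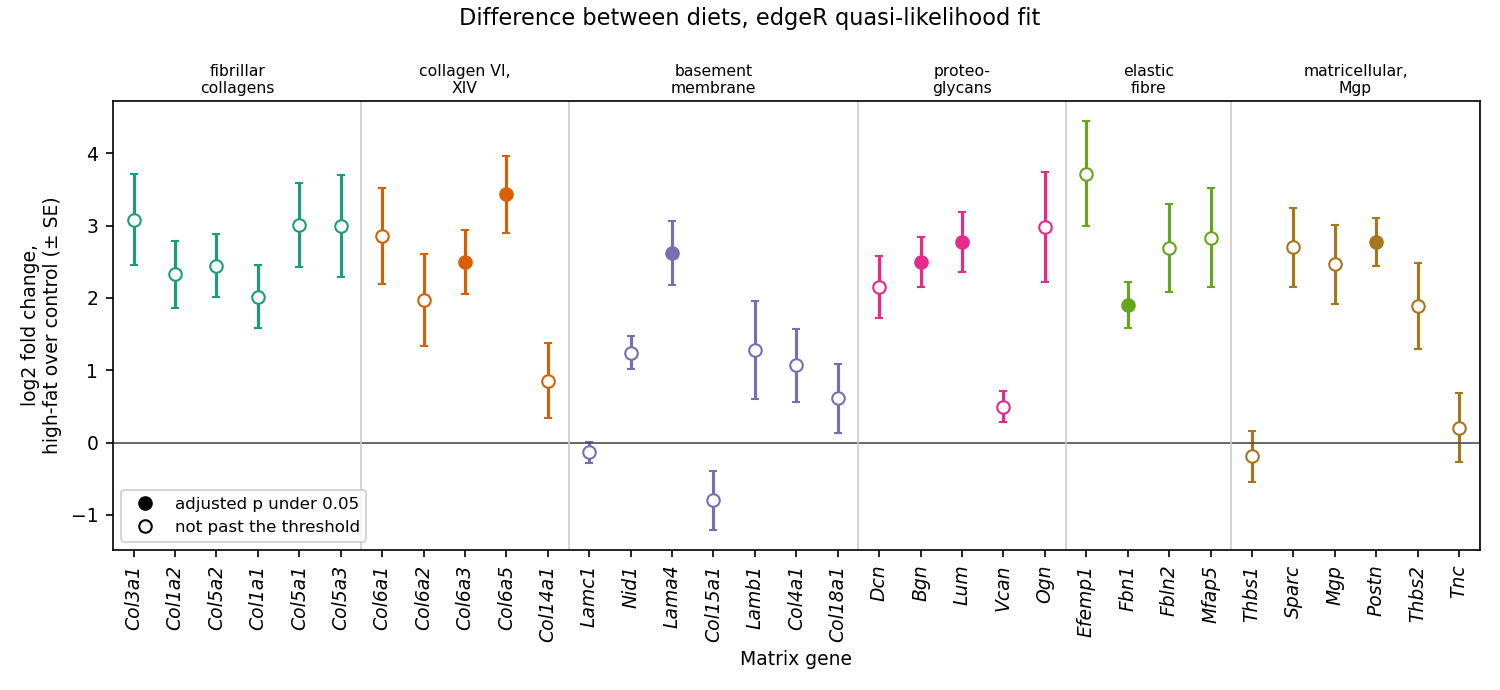
Log2 fold change of high-fat over control diet with its standard error for the 33 tested matrix genes, from the edgeR fit on all genes; filled points passed an adjusted p of 0.05. The 7 filled points lie between 1.90 and 3.43, and several open points are as high with wider errors.

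The make-up of the matrix transcripts was compared per exon length, as CPM divided by exon length in kilobases (RPKM), summed over the 43 genes in each library. Thbs1 made up 50.9% and 33.7% of that sum with control diet and 12.7% and 16.5% with high-fat diet. Dcn made up 19.2% and 37.3% against 45.4% and 46.9%. Fibrillar collagens took 5.12% and 5.66% with control diet and 15.3% and 10.95% with high-fat diet, and basement membrane genes took 15.2% and 13.7% against 5.16% and 7.94%. None of these 4 shares overlapped between the diets. The summed RPKM itself was 27.2 and 23.5 against 86.6 and 48.9. Shares of a sum depend on each other, and with 2 libraries a diet no test was made.

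**Figure D3:**
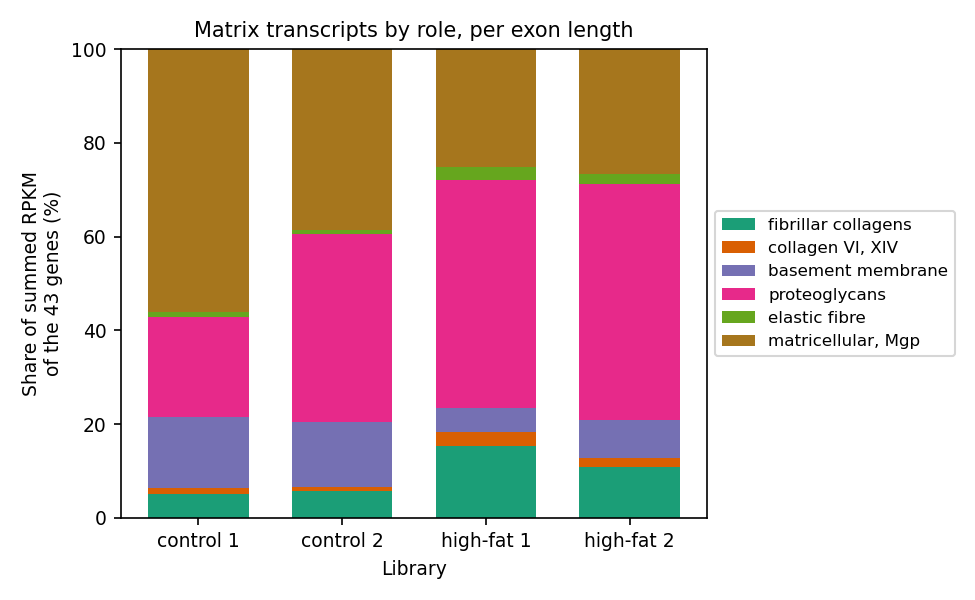
Share of the summed RPKM of the 43 matrix genes held by each of 6 roles, stacked to 100% in each library (bars). The proteoglycan and fibrillar collagen layers are thicker in both high-fat libraries, and the matricellular layer, mostly Thbs1, is thinner.

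Ratios between chains were taken within each library, per exon length, with exact binomial (Clopper-Pearson) 95% intervals that cover counting error only. Col1a1, which provides most chains of the collagen I trimer, was counted far below its partner Col1a2 in every library. The ratio of Col1a1 to Col1a2 was 0.129 (0.0625 to 0.243) and 0.0946 (0.0369 to 0.204) with control diet and 0.0761 (0.0560 to 0.101) and 0.130 (0.0866 to 0.189) with high-fat diet, and all 4 intervals overlapped. The GC content of the transcripts was 58.9% for Col1a1 and 55.7% for Col1a2; its part in the ratio was not tested. Col4a1 exceeded Col4a2, its partner in the collagen IV trimer, with ratios of 1.94 and 3.89 against 2.71 and 2.75, and these intervals were too wide to separate the libraries. Col6a1 exceeded Col6a2 by 2.42 and 3.28 times with control diet and by 4.99 and 5.02 times with high-fat diet, again with overlapping intervals.

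The ratio of Col3a1 to Col1a2, which was chosen after its values were seen, differed more. It was 1.55 (1.19 to 2.03) and 1.87 (1.43 to 2.47) with control diet and 2.96 (2.73 to 3.23) and 2.66 (2.30 to 3.07) with high-fat diet. High-fat replicate 1 lay outside both control intervals, while the interval of high-fat replicate 2 overlapped that of control replicate 2. Lamb1 stood at 0.0141 and 0.0155 of Lamc1 with control diet, and at 0.0620 and 0.0147 with high-fat diet, so high-fat replicate 1 alone was apart.

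**Figure D4:**
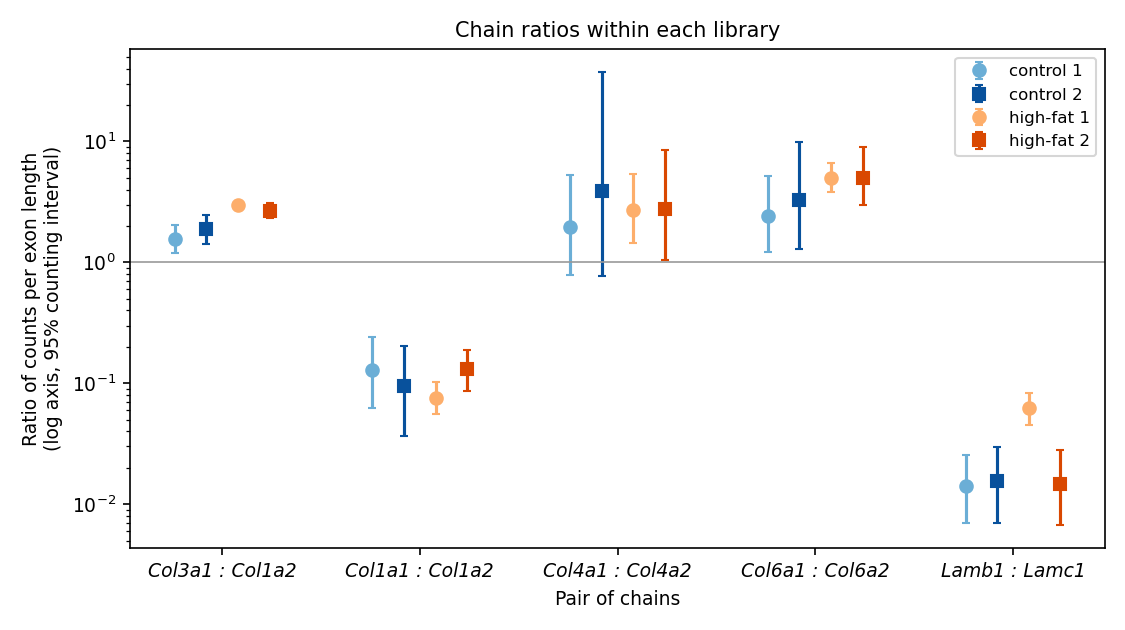
Ratio of counts per exon length between pairs of matrix chains (log axis) in each library, with exact 95% counting intervals as bars. Col3a1 to Col1a2 is higher in both high-fat libraries, Lamb1 to Lamc1 is higher in high-fat replicate 1 alone, and the other pairs overlap.

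Several of the genes are neighbours in the deposited mm9 gene models, with no other gene model wholly between them. Dcn and Lum are 47338 bases apart on chromosome 10, and their log2 fold changes were 2.15 and 2.77. Col3a1 and Col5a2 are 24624 bases apart on chromosome 1 and had 3.08 and 2.45. Col6a2 and Col6a1 are 85387 bases apart on chromosome 10 and had 1.97 and 2.86. Col4a1 and Col4a2 start 2 bases apart on opposite strands of chromosome 8, and both were at the limit of counting. Prelp and Fmod, 116113 bases apart on chromosome 1, were both nearly absent. Other leucine-rich proteoglycan genes, chosen after their values were seen, were lower or too rare to compare: Omd, encoding osteomodulin, had 51 and 39 counts with control diet and 25 and 34 with high-fat diet, and Aspn, Ecm2, Epyc, Kera and Optc had at most 2 counts in any library.

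Genes outside the list that make, bind or cut matrix moved in both directions. Among 60 other core matrix genes, 24 were tested, 0 were called higher and 1 lower in edgeR, with 7 higher and 5 lower at an unadjusted p under 0.05 and a median log2 fold change of -0.07. DESeq2 called 4 higher and 2 lower, and limma-voom 0. Fn1, encoding fibronectin, was the gene that fell, from 438 and 356 to 231 and 222 CPM (-0.81 ± 0.12, adjusted p = 0.0290, edgeR). Other abundant genes of that group were not called: Spp1, encoding osteopontin, stood at a log2 fold change of -0.39 ± 0.14, and Srgn, the granule proteoglycan serglycin, at 0.19 ± 0.14. Of the 7 higher genes, Wisp1, Nov and Col24a1, chosen after their values were seen, had 2.67, 2.54 and 2.45 and were not called in edgeR. Nov was below the filter's level in both control libraries. Of the 5 lower genes, Ltbp3 had the lowest value, -1.16. Of 27 genes for collagen processing and crosslinking, 18 were tested, and the lysyl hydroxylase gene Plod2 was the only one called in edgeR, higher with a log2 fold change of 0.999 ± 0.17. Exons of Plod2, and of Ddr2 below, overlap another gene model. The use of strand in counting is unknown, so the effect of the overlap on their counts is not known. DESeq2 called 2 of the 18 higher and 1 lower, and limma-voom 0. The lysyl oxidase gene Lox and the collagen chaperone gene Serpinh1, chosen after their values were seen, lay on opposite sides and did not pass in edgeR. Lox stood at 7.88 and 8.60 against 4.76 and 3.40 CPM (adjusted p = 0.0634), and Serpinh1 at 0.646 and 0.696 against 3.83 and 1.53 CPM (adjusted p = 0.0961). P4hb and Ppib, the most abundant of that group per exon length, had log2 fold changes of 0.03 and -0.14.

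Of 21 matrix receptor genes, 16 were tested, with 2 called higher and 1 lower in edgeR. DESeq2 called 3 higher and 1 lower, and limma-voom 0. Sdc2, a heparan sulfate proteoglycan, rose from 0.224 and 0.155 to 1.83 and 1.15 CPM (log2 fold change 2.96 ± 0.44). Neither control library reached the filter's level for Sdc2, so it was tested through the high-fat libraries alone and could only come out higher. The collagen receptor Ddr2 rose from 0.323 and 0.618 to 2.80 and 1.88 CPM (2.31 ± 0.38). Itgb3, the beta 3 integrin subunit, fell (-0.96 ± 0.16). The abundant receptors Itgb1 and Cd44 stood at 0.22 each and did not pass. Of 20 proteases and inhibitors, 15 were tested, 0 were called higher and 1 lower in edgeR, the gelatinase gene Mmp9 (-1.48 ± 0.18). At an unadjusted p under 0.05 there were 3 in each direction. Of the higher ones, Mmp3 was below the filter's level in both control libraries. DESeq2 called 2 higher and 1 lower, and limma-voom 0 and 1. The cathepsin genes Ctss and Ctsl, the most abundant there per exon length, had log2 fold changes of -0.08 and -0.05. Over all genes the edgeR rule called 0.322% higher and 0.29% lower, and 8.56% and 8.46% were higher and lower at an unadjusted p under 0.05.

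Summed levels of stromal markers that are not matrix genes were higher in both high-fat libraries, but single markers lay on either side. The summed level of 13 fibroblast markers was 4.40 and 4.74 CPM with control diet and 25.1 and 14.3 CPM with high-fat diet. Of these, 6 were tested and 1, Ddr2, which also stands among the receptors above, was called higher in edgeR (0.322% of all genes). DESeq2 called 2 of the 6 higher (1.3% of all genes), and limma-voom 0. The receptor gene Pdgfra supplied most of the sum, with 75 and 78 counts against 858 and 344, while Fap had 25 and 31 against 29 and 26, Pdgfrb had 15 and 12 against 15 and 19, and Tcf21 was at 0 in all libraries. Prrx1 was higher, with 29 and 21 against 107 and 60 counts, and was not called in edgeR (adjusted p = 0.0757). Thy1 had 13 and 11 against 10 and 42 counts, highest in high-fat replicate 2, and Pi16 was lower with 3 and 5 against 0 and 2. The 11 mesothelial markers summed to 2.29 and 2.27 CPM against 9.13 and 3.63 CPM, with the transcription factor gene Wt1 at 5 and 9 against 44 and 16 counts and Msln, encoding mesothelin, at 11 and 3 against 30 and 5. Of the 11, 6 were tested and 0 called in edgeR, DESeq2 and limma-voom. At an unadjusted p under 0.05 in edgeR, 5 were higher and 0 lower (8.56% and 8.46% of all genes). Wt1, Lrrn4 and Bnc1 were below the filter's level in both control libraries and could only come out higher, so no direction is read from this count. The remaining higher markers, Upk1b and Gpm6a, reached that level in both control libraries. Upk1b had 16 and 12 against 70 and 32 counts, and Gpm6a 33 and 32 against 120 and 47. The keratin genes Krt7, Krt8, Krt18 and Krt19 and Msln overlapped between the diets, and Krt8 and Krt19 had 5 counts each in high-fat replicate 2, below both control libraries in CPM. As in the matrix genes, high-fat replicate 1 had the higher of the high-fat sums in both lists. The part of such cells in the matrix values was not tested.

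Other marker lists had these sums. The 8 smooth muscle and pericyte markers summed to 0.795 and 0.670 CPM against 2.11 and 1.25 CPM. Acta2 supplied most of each sum, with 23 and 16 against 56 and 26 counts, and was not called (adjusted p = 0.307, edgeR). The contractile gene Cnn1 was at 0 in every library and Myh11 at 0 in both control libraries. The 10 endothelial markers summed to 6.76 and 6.80 against 7.97 and 7.73 CPM, nearly all from Kdr. Cdh5 had 12 and 9 against 13 and 13 counts and overlapped between the diets, while Emcn, Cldn5 and Robo4 were at 0 in all libraries. Adipocyte markers had at most 2 counts in any library, and platelet markers were between 0.582 and 1.08 CPM in sum with Gp9 and Gp1bb at 0. Neutrophil markers summed to 86.2 and 88.2 CPM with control diet and 54.6 and 50.4 CPM with high-fat diet. Of 7 tested, 2 were called lower in edgeR (0.29% of all genes): Csf3r, and Mmp9, which also stands among the proteases above. DESeq2 called 4 of the 7 lower (1.57% of all genes), and limma-voom 1. At an unadjusted p under 0.05 in edgeR, 5 were lower and 0 higher (8.46% and 8.56% of all genes). Padi4 had 151 and 91 against 47 and 45 counts, and Retnlg 21 and 74 against 2 and 4. Retnlg was below the filter's level in both high-fat libraries and could only come out lower. S100a8 and S100a9 overlapped between the diets.

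**Figure D5:**
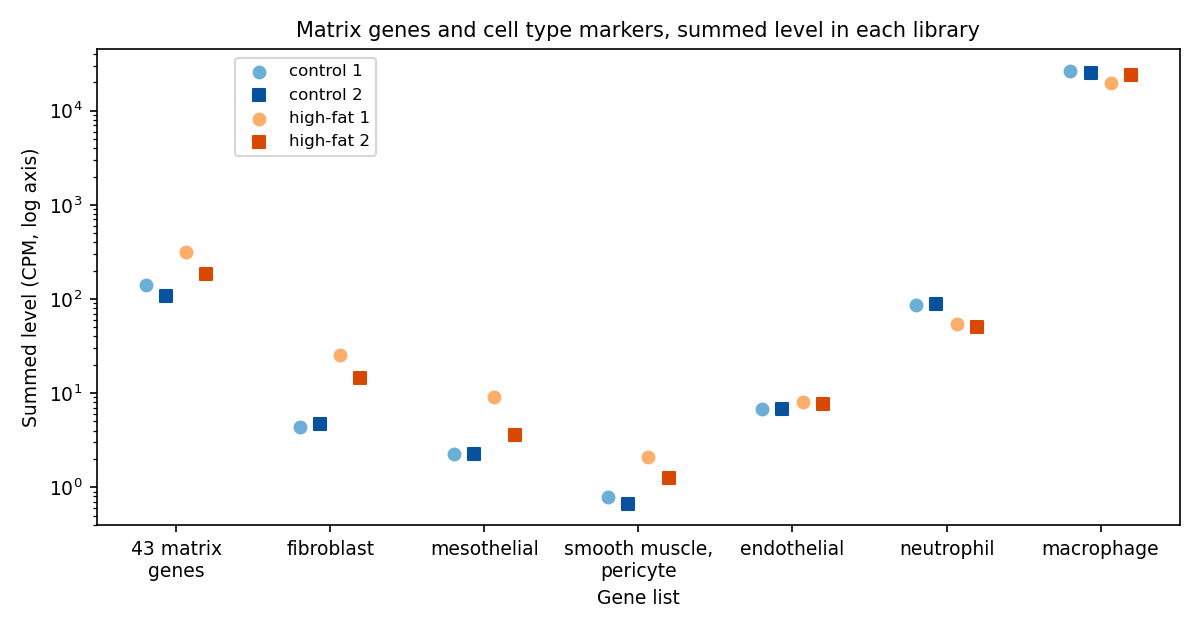
Summed CPM (log axis) of the 43 matrix genes and of 6 lists of cell type markers in each library (points). Fibroblast and mesothelial sums are higher in both high-fat libraries with replicate 1 on top, and neutrophil sums are lower. Macrophage sums, mostly Lyz2, are lowest in high-fat replicate 1.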

How the data were processed

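RNA depleted of ribosomal RNA was sequenced from 2 libraries per diet. The authors deposited raw counts per gene, 1 table per library, and mm9 gene models as other values (exon starts and ends), per the file headers and names. The submitters' processing notes name TopHat2 2.0.10, Cufflinks 2.1.1 and HTSeq; settings and use of strand: not given in the sources used here. Summary lines, 5 per library, were left out; reads aligned to more than 1 place were 37.5% to 48.5% of all lines, and reads in no gene 13.5% to 15.0%.

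The filter was filterByExpr (minimum count 10, minimum total 15) in edgeR 4.0.16, and genes were tested by its robust quasi-likelihood test with TMM, diet as the only term and 2 residual degrees of freedom. Adjustment was by Benjamini-Hochberg over 12747 genes, to a threshold of 0.05. CPM uses TMM-adjusted totals; RPKM divides it by summed exon length in kilobases. The standard error is the log2 fold change over the square root of F. The test was tried on simulated counts. Replicates differed beyond sampling noise (chi-square per degree of freedom 33.8 and 34.9). Alternatives were other scaling, filters, tools (DESeq2 1.42.0, limma 3.58.1), a replicate block, removal of trends, and leaving out each library.

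The members and lists were chosen with earlier results of these data known. Tested genes were named by a fixed rule: all called members, the rarest by raw counts, and in other lists the called genes and the 2 most abundant per exon length; genes outside it are marked, or are examples of marker lists. Of the sequences, only stretches free of annotated GENCODE M21 exons are printed.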

Additional observations from a re-analysis of the deposited data

How the results depend on the processing

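Each alternative was compared with 41 genes called higher and 37 lower, and 7 matrix genes higher. DESeq2 called 166 higher and 200 lower (16 matrix genes higher), limma-voom 14 and 14 (2), no filter on low counts 255 and 267 (17 of 43 matrix genes), removing the exon length trend 65 higher, and removing trends in both GC and length, chosen after seeing the data, 79 and 73. The replicate block, whose numbers are only shared labels (r = 0.089 between the diets' replicate differences), called 49 higher and 64 lower, with 8 matrix genes higher; Fbn1 and Col6a3 were not among them. Leaving out 1 library, where the diet's lone library was assumed to vary like the others, gave 5 to 442 genes called higher and 7 to 389 lower, 0 to 24 matrix genes higher, and a median log2 fold change of the matrix genes from 1.73 (without high-fat replicate 1) to 2.65. No matrix gene was called lower in the 13 alternatives run; at an unadjusted p under 0.05 the edgeR test had 0 lower and DESeq2 called 0. The log2 fold change of 4 genes reversed. Lamc1 was 0.047 without the trends in GC and length and ran from -0.31 to 0.049 when 1 library was left out, with the high end when control replicate 1 was missing. Over the same omissions Thbs1 ran from -0.54 to 0.25 (0.0091 without high-fat replicate 2), Lamb1 from -0.16 to 1.96 and Tnc from -0.25 to 0.52, both with the low end when high-fat replicate 1 was missing. None of these 4 was called in the edgeR test on all libraries. Lamb1 was called higher only without high-fat replicate 2, where the spread came from the control pair alone. The cause of the reversals was not tested. Most of the 33 matrix genes had under 20 counts in each control library, which limits the precision of their fold changes.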
